A study of Mus musculus with 6 samples.

Results

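The genes described here are those of oxidative phosphorylation, taken by symbol: every gene whose symbol starts with Nduf, Uqcr, Atp5, Cox4, Cox5, Cox6, Cox7 or Cox8, together with Sdha, Sdhb, Sdhc, Sdhd and Cyc1. RefSeq holds 97 protein-coding mouse genes with such symbols, and 90 of them were measured, out of 19938 genes tested in all. The other 7, among them Cox7c, Ndufb4 and Ndufb4b, had no probe set that names them alone and were not measured by this rule. No filter on low values was set, so all 90 entered the test. They were grouped as 34 subunits of complex I, 7 assembly factors of complex I, 4 subunits of complex II, 9 of complex III, 11 of complex IV, 17 of ATP synthase and 8 isoforms known from other tissues or conditions. The rule uses symbols alone, not measured values, but the set was chosen with earlier results of these data known.

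Expression was measured with Affymetrix arrays in BDC2.5 CD4 T cells from the spleen of female NOD mice aged 7 weeks. NOD mice develop autoimmune diabetes, and BDC2.5 T cells carry a receptor for an antigen of pancreatic beta cells. All mice had received BDC2.5 T cells by transfer, and were then injected intravenously with PBS, with 100 ng of anti-DEC205-BDC or with 100 ng of anti-DCIR2-BDC, antibodies that carry the BDC antigen to different dendritic cells. The transferred cells were sorted 14 h later as Thy1.1+CD4+ cells. Each of the 3 groups had 2 arrays, called PBS, DEC205 and DCIR2 arrays 1 and 2 here, so that n = 2 in each group throughout. The labels name them biological duplicates without giving the number of mice behind each. None of these groups received an antibody without the antigen, so that effects of antibody and antigen cannot be told apart.

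Oxidative phosphorylation takes place in the inner mitochondrial membrane. Complexes I and II pass electrons from NADH and succinate to ubiquinone, complex III passes them to cytochrome c and complex IV to oxygen, and complexes I, III and IV pump protons whose return drives ATP synthase. Nearly all subunits are encoded in the nucleus, apart from a few core subunits encoded in mitochondrial DNA. In T cells, activation is known to be followed by growth of the mitochondrial mass and by changes in its make-up.

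Medians of the arrays over all probe sets lay between 5.43 and 5.56 on the log2 scale, and arrays correlated across the genes tested, which are not independent replicates, at 0.929 to 0.988. DEC205 array 2 correlated with the DCIR2 arrays (0.983 and 0.984) about as closely as with DEC205 array 1 (0.984). The labelled cell type was checked against marker genes: 9 measured markers of T cells lay at a median percentile of 99.2 among all genes, and those of CD8 T cells, B cells, dendritic cells, macrophages, NK cells, neutrophils and erythroid cells at medians of 12.7 to 50.1. After anti-DCIR2-BDC 6 of the 9 T cell markers fell, beside 7.82% of all genes. Among them were Cd3g by 1.24 and Cd3d by 1.03 on the log2 scale (limma adjusted p = 0.000221 and 0.000614). After anti-DEC205-BDC 0 passed, beside 3.53% of all genes as lower. Some were near the threshold there, with changes of -0.48 for Cd3d and -0.47 for Cd3g (limma adjusted p = 0.0645 and 0.0701), while Cd5 had a change of 0.20. The summed linear level of the 9 ranged from 18100 to 18900 on the PBS arrays, from 13700 to 14900 on the DEC205 arrays and from 10700 to 10800 on the DCIR2 arrays. In the lists of other cell types the T-box factor Eomes, listed as an NK cell marker, was higher with both antibodies (changes of 1.64 and 1.06, the latter not passing without PBS array 2 or either DCIR2 array), and no other marker passed. The part of these differences in the results below was not tested. In such bulk samples fewer cells of a type and less RNA per cell cannot be told apart.

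Genes of oxidative phosphorylation were higher after either antibody than after PBS. Among the 90 genes, 28 passed as higher and 0 as lower after anti-DEC205-BDC (limma, adjusted p under 0.05 over all genes), a share of 31.1% higher. Over all genes tested 5.32% passed as higher and 3.53% as lower in that comparison. After anti-DCIR2-BDC 34 genes passed as higher and 2 as lower, a share of 37.8% higher, beside 10.1% higher and 7.82% lower over all genes. Most of the 90 were bright: with the dimmest 50% of all genes left out, 84 of them remained. Then 41.7% of these and 12.4% of all genes kept rose after anti-DEC205-BDC, and 46.4% and 21.3% after anti-DCIR2-BDC. The median log2 change of the 90 was 0.40 after anti-DEC205-BDC and 0.44 after anti-DCIR2-BDC, while the medians of all genes were -0.03 and -0.05. A change of at least 2-fold was reached by 9 and 19 of the genes that passed. Both comparisons share the PBS arrays, so that they are not independent of each other.

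Taking each array's values against the mean of the PBS arrays, the median of the 90 genes was 0.34 and 0.51 on the DEC205 arrays, 0.33 and 0.54 on the DCIR2 arrays, and 0.03 and -0.03 on the PBS arrays. All 4 arrays of treated mice thus lay above both PBS arrays. Both DEC205 arrays were above both PBS arrays in 61 genes and below them in 3, against 22.2% and 26.5% of all genes. For anti-DCIR2-BDC this was so in 56 and 5 genes, against 23.4% and 31.9% of all genes.

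The number of calls depended on single arrays more than the medians did. Without DEC205 array 2 the 28 calls after anti-DEC205-BDC became 10, without DEC205 array 1 they became 16, and without PBS array 2 they became 13. Without DCIR2 array 2 the 36 calls after anti-DCIR2-BDC became 19. The members' share of higher calls was then 11.1%, 17.8%, 14.4% and 21.1%, and that of all genes 3.01%, 3.87%, 4.01% and 5.91%. Over all 17 alternative settings 7 genes kept their call after anti-DEC205-BDC (Atp5b, Atp5g1, Ndufa12, Ndufaf4, Ndufaf6, Ndufb6 and Ndufc2). After anti-DCIR2-BDC 19 did: those same 7 together with Atp5a1, Atp5d, Atp5o, Atp5pb, Cox5a, Ndufa4, Ndufab1, Ndufaf2, Ndufs8, Uqcr11, Uqcrb and Uqcrc2.

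**Figure D1:**
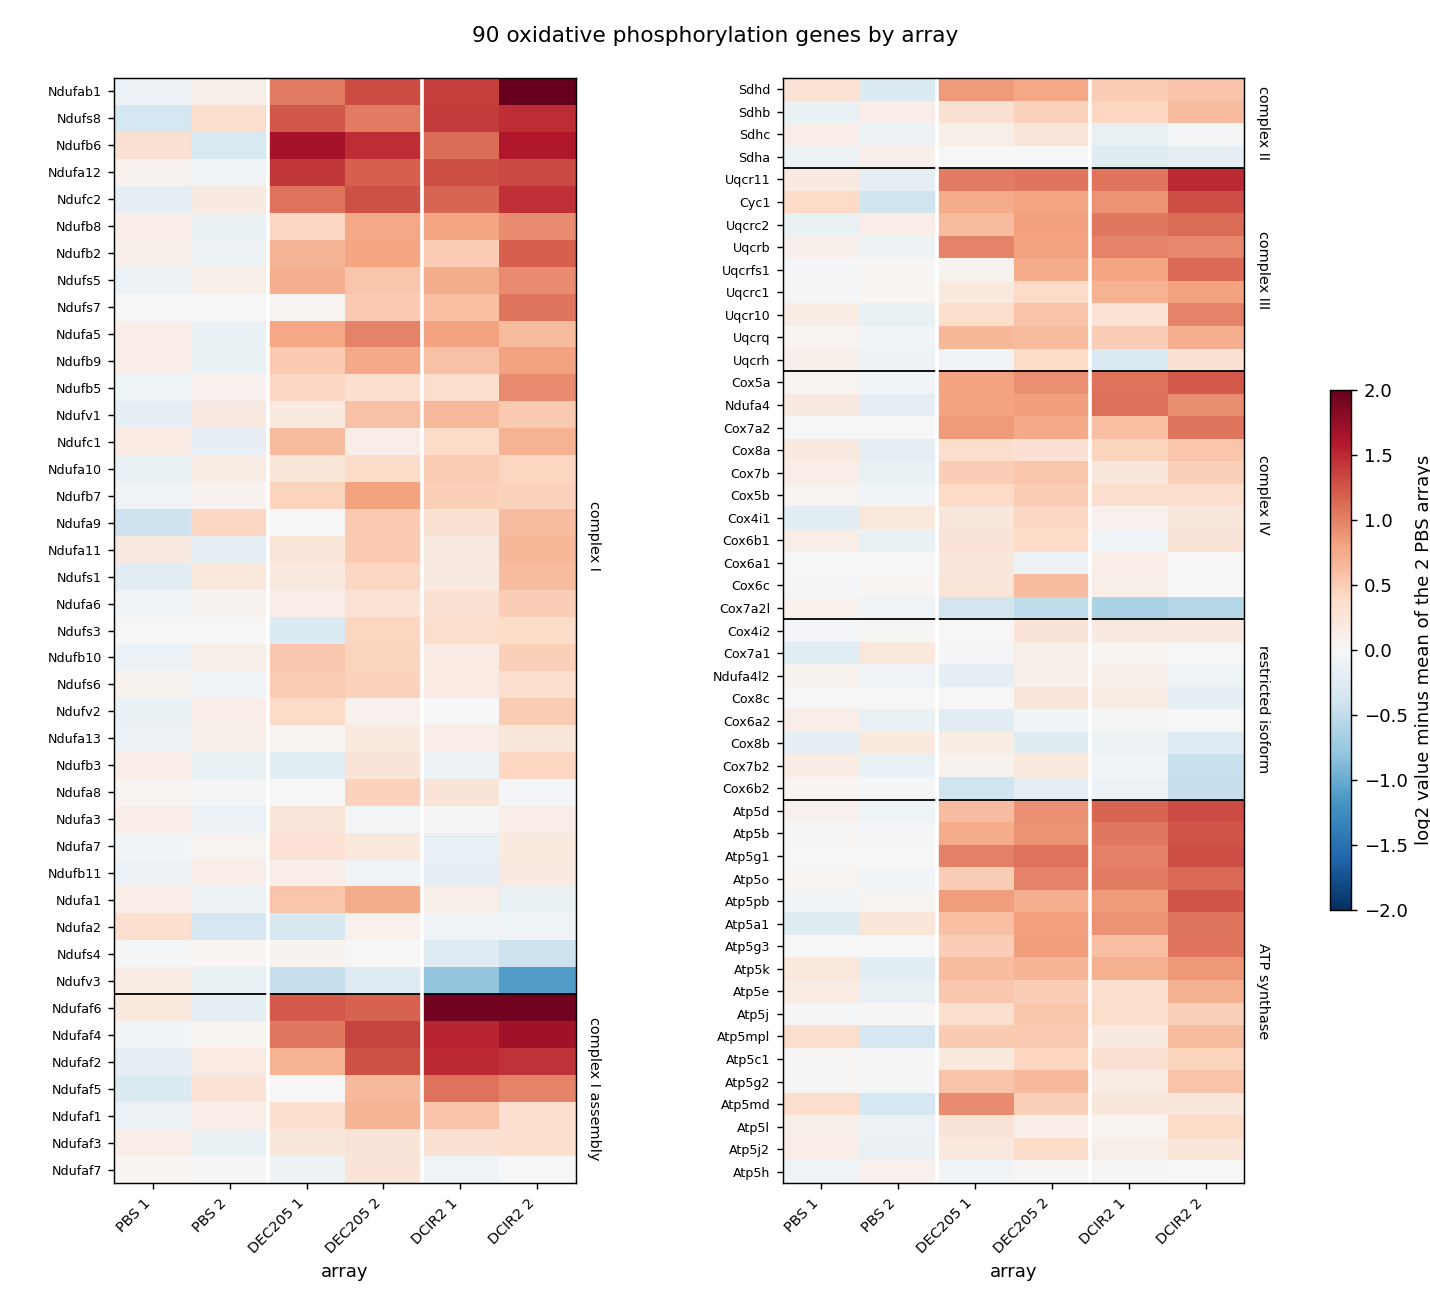
Heat map of the 90 genes (rows, by complex, ordered by the change after anti-DCIR2-BDC) on the 6 arrays (columns), coloured by the log2 value minus the mean of the 2 PBS arrays. Red prevails on the DEC205 and DCIR2 arrays apart from complex II after anti-DCIR2-BDC, where 2 of 4 genes are above and 2 below PBS, with the strongest colours for Ndufab1, Ndufb6 and the assembly factors Ndufaf6, Ndufaf4 and Ndufaf2, while Ndufv3 and Cox7a2l are blue and the 8 restricted isoforms stay near white.

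Promoters of these genes are known as targets of nuclear respiratory factor 1 (NRF1), of ETS factors such as GABPA and of YY1. To show what members that passed and members that did not have in common, stretches of 5 promoters are printed 5′ to 3′ from RefSeq (GRCm38.p6), with matches to the NRF1 letters GCATGCGC or the ETS letters CCGGAAG, on either strand, in capitals. The stretches were chosen after the values were seen. Uqcr11 (minus strand, chr10:80406803-80406902), Ndufaf4 (plus strand, chr4:24897955-24898106) and Atp5k (minus strand, chr5:108434375-108434464) passed as higher with both antibodies, while Cox6a1 (minus strand, chr5:115348953-115349135) and Sdhb (plus strand, chr4:140961202-140961295) passed with neither. Each stretch runs from before the transcription start into at most 25 bases after it.
Uqcr11: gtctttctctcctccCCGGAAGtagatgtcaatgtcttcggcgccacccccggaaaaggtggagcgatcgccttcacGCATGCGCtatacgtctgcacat
Ndufaf4: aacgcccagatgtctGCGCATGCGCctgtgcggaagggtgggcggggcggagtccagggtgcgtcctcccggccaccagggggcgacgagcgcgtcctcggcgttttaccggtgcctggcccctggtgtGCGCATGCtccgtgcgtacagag
Atp5k: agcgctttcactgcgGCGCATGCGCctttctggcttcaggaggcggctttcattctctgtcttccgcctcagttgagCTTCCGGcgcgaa
Cox6a1: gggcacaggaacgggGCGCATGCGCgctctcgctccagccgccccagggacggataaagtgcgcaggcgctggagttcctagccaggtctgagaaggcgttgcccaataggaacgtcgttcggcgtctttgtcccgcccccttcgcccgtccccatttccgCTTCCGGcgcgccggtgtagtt
Sdhb: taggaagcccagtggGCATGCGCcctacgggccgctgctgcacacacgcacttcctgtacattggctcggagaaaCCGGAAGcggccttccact
Uqcr11, Atp5k, Cox6a1 and Sdhb thus all hold both sets of letters, though only the first pair passed. The longer capital runs are places where the NRF1 letters match on both strands and overlap.

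Promoters of 300 bases, 250 before the start and 50 after it, were found for 73 of the 90 genes and for 15614 of all genes tested. The NRF1 letters stood in 16.4% of the 73 and in 4.27% of all genes. For the ETS letters these shares were 24.7% and 13.6%, and for the YY1 letters AAGATGGC they were 13.7% and 3.77%. The letters AAGGTCA of estrogen-related receptors were found in 9.59% and 4.48%, and the E-box CACGTG in 8.22% and 9.50%. At least 1 of the NRF1, ETS and YY1 motifs was present in 34 of the 73 (46.6%) and in 19.7% of all genes. Counted over promoters instead of genes, where a gene can have several, the shares were 15.4%, 23.1%, 12.8%, 8.97% and 8.97% of 78 promoters, against 2.71%, 8.86%, 2.75%, 4.72% and 7.15% of 32851.

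Changes of genes with and without these letters are set side by side here as descriptions, with no test of their difference. For the 12 genes with the NRF1 letters the median log2 change was 0.35 after anti-DEC205-BDC and 0.48 after anti-DCIR2-BDC, beside 0.45 and 0.46 for the 61 without them. For the 18 genes with the ETS letters the medians were 0.48 and 0.46, beside 0.39 and 0.46 for the 55 without. The 10 genes with the YY1 letters had medians of 0.34 and 0.44, beside 0.41 and 0.47 for the 63 without. After anti-DEC205-BDC 1 of the 10 and 22 of the 63 passed as higher, and after anti-DCIR2-BDC 3 and 24 did. For the NRF1 letters 4 of the 12 and 19 of the 61 without passed as higher after anti-DEC205-BDC, and for the ETS letters 6 of the 18 and 17 of the 55. After anti-DCIR2-BDC the counts were 5 and 22 for the NRF1 letters and 5 and 22 for the ETS letters. The 7 genes with the letters of estrogen-related receptors had medians of 0.64 and 0.79, beside 0.38 and 0.42 for the 66 without. For the 6 genes with the E-box the medians were 0.52 and 0.72, beside 0.39 and 0.46 for the 67 without. A match says only that the letters stand in this window.

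**Figure D2:**
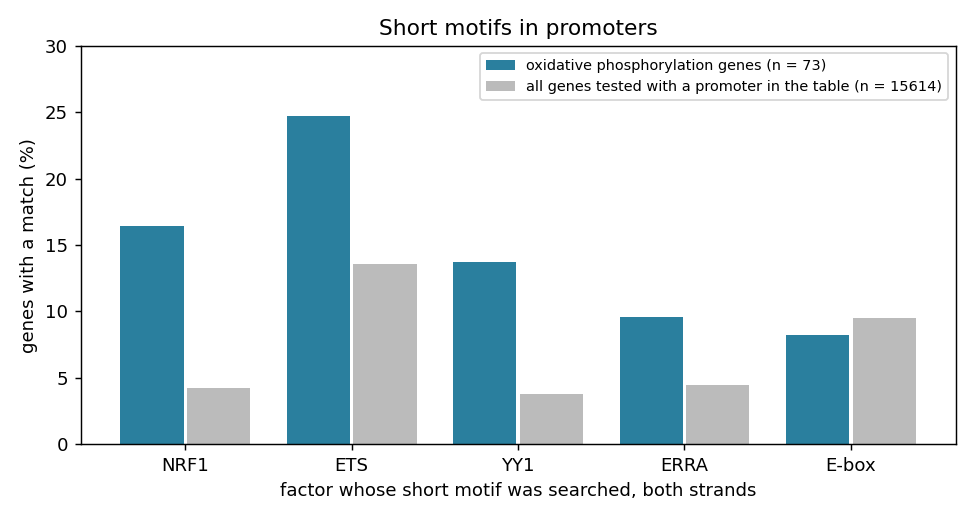
Percentage of genes whose promoter of 300 bases holds the letters of each factor on either strand, for 73 oxidative phosphorylation genes (blue) and all 15614 genes tested with a promoter in the table (grey). The NRF1 bars stand at 16.4% and 4.27% and the YY1 bars at 13.7% and 3.77%, and the E-box bars at 8.22% and 9.50%.

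Complex I takes electrons from NADH. Counts for it and for the groups that follow are to be read beside the shares over all genes. These were 5.32% higher and 3.53% lower after anti-DEC205-BDC and 10.1% and 7.82% after anti-DCIR2-BDC. With the dimmest 50% of all genes left out, 12.4% and 21.3% were higher. Whether the count of any group differs from these shares was not tested. Of its 34 measured subunits, 7 rose after anti-DEC205-BDC (Ndufa12, Ndufa5, Ndufab1, Ndufb6, Ndufb7, Ndufc2 and Ndufs8), and the median change was 0.38. After anti-DCIR2-BDC 11 rose and 1 fell, with a median of 0.44. Among the 6 core subunits, which carry the flavin and the iron-sulfur clusters, Ndufs8 passed with both antibodies and Ndufs7 after anti-DCIR2-BDC. Of the 28 accessory subunits, which surround the core, 6 and 9 rose.

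Ndufb6, an accessory subunit of the membrane arm, was at 8.37 and 7.75 on the PBS arrays, 9.73 and 9.54 on the DEC205 arrays and 9.18 and 9.66 on the DCIR2 arrays. Both PBS arrays were below all 4 others. It rose by 1.57 ± 0.24 (SE) on the log2 scale, 2.98-fold, after anti-DEC205-BDC (limma adjusted p = 0.00321), the largest change of any member there, and by 1.36 ± 0.24 after anti-DCIR2-BDC (limma adjusted p = 0.00259). Ndufa12, another accessory subunit, had values of 6.93 and 6.79 on the PBS arrays, 8.27 and 8.06 on the DEC205 arrays and 8.15 and 8.18 on the DCIR2 arrays. Its changes of 1.30 ± 0.19 and 1.31 ± 0.19 were nearly equal (limma adjusted p = 0.00259 and 0.000795). Ndufc2 was at 9.16 and 9.52 after PBS, 10.42 and 10.61 after anti-DEC205-BDC and 10.50 and 10.80 after anti-DCIR2-BDC, and rose by 1.17 ± 0.17 and 1.31 ± 0.17 (limma adjusted p = 0.00284 and 0.000493).

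Ndufab1, the acyl carrier protein of mitochondria, which serves fatty acid synthesis and iron-sulfur cluster assembly as well as complex I, was at 8.10 and 8.33 on the PBS arrays, 9.26 and 9.52 on the DEC205 arrays and 9.59 and 10.25 on the DCIR2 arrays. The 3 groups did not overlap. It rose by 1.18 ± 0.23 and by 1.70 ± 0.23, 3.25-fold (limma adjusted p = 0.0104 and 0.000529). Ndufs8, a core subunit with iron-sulfur clusters, was at 7.04 and 7.73 after PBS, 8.63 and 8.43 after anti-DEC205-BDC and 8.79 and 8.86 after anti-DCIR2-BDC. Its changes were 1.14 ± 0.24 and 1.44 ± 0.24 (limma adjusted p = 0.0139 and 0.00176). The calls of both genes after anti-DEC205-BDC were lost without PBS array 1 (adjusted p = 0.0585 for Ndufab1 and 0.0781 for Ndufs8). Ndufab1 also lost its call without DEC205 array 2 (0.0657), and Ndufs8 without DEC205 array 1 (0.072).

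The other rises in complex I were smaller, and each was lost without at least 1 array. Ndufa5 rose by 0.89 ± 0.19 and 0.72 ± 0.19 with the antibodies in turn. Ndufb7 passed after anti-DEC205-BDC (0.62 ± 0.17, limma adjusted p = 0.0492). After anti-DCIR2-BDC Ndufb2, Ndufb8, Ndufb9, Ndufs5 and Ndufs7 passed with changes between 0.70 and 0.87. After anti-DEC205-BDC these 5 genes had changes of 0.74, 0.60, 0.63, 0.64 and 0.29 and did not pass. The 7 calls after anti-DEC205-BDC became 4 without PBS array 1 or without DEC205 array 2. The 11 higher calls after anti-DCIR2-BDC became 5 without DCIR2 array 2 and 6 without PBS array 2.

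Ndufv3, an accessory subunit bound to the NADH-oxidising module, went the other way. It was at 8.54 and 8.25 on the PBS arrays, 7.94 and 8.13 on the DEC205 arrays and 7.61 and 7.28 on the DCIR2 arrays. The DCIR2 arrays were the lowest and the groups did not overlap. It fell by 0.95 ± 0.21 on the log2 scale, 1.93-fold, after anti-DCIR2-BDC (limma adjusted p = 0.00897), and its change of -0.36 after anti-DEC205-BDC did not pass (limma adjusted p = 0.381). The call was lost without PBS array 1 (adjusted p = 0.0649) and without DCIR2 array 2 (0.0948). Several subunits stayed near 0: Ndufb11 had changes of 0.03 and 0.01, Ndufb3 of 0.03 and 0.17, and Ndufa3 of 0.11 and 0.07, none of which passed.

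Assembly factors build complex I from its modules and are not part of the finished enzyme. Of 7 measured, Ndufaf6, Ndufaf4 and Ndufaf2 rose after both antibodies and Ndufaf5 after anti-DCIR2-BDC. The median change was 0.50 after anti-DEC205-BDC and 1.04 after anti-DCIR2-BDC. The latter was above the medians of all complexes in that comparison, but rests on 7 genes and became 0.76 without PBS array 1, below the 0.94 that complex III then had.

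Ndufaf6 had the largest change of all members after anti-DCIR2-BDC. It was at 4.84 and 4.44 on the PBS arrays, 5.87 and 5.82 on the DEC205 arrays and 6.57 and 6.57 on the DCIR2 arrays. The groups did not overlap, but the difference between the antibodies did not pass (limma adjusted p = 0.223). Its PBS values were dim, below the median of 5.66 over the genes tested on either PBS array. Its rise was 1.20 ± 0.17 after anti-DEC205-BDC and 1.93 ± 0.17, 3.81-fold, after anti-DCIR2-BDC (limma adjusted p = 0.00273 and 7.6e-05). Ndufaf4, a factor of early assembly, was at 7.22 and 7.32 after PBS, 8.33 and 8.62 after anti-DEC205-BDC and 8.79 and 8.95 after anti-DCIR2-BDC. It rose by 1.21 ± 0.19 and 1.60 ± 0.19 (limma adjusted p = 0.00397 and 0.000286). Ndufaf2, a factor of late assembly, was at 5.98 and 6.31, at 6.84 and 7.42 and at 7.64 and 7.59 in the same order, and rose by 0.98 ± 0.23 and 1.47 ± 0.23 (limma adjusted p = 0.0246 and 0.00136). The smaller of its calls was lost without PBS array 1 (adjusted p = 0.141), DEC205 array 2 (0.159), DCIR2 array 1 (0.0535) or DCIR2 array 2 (0.054).

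Ndufaf5, which modifies the core subunit Ndufs7 during assembly, was at 5.64 and 6.19 on the PBS arrays, 5.91 and 6.57 on the DEC205 arrays and 7.00 and 6.91 on the DCIR2 arrays. PBS and DEC205 arrays overlapped, and the DCIR2 arrays lay above both. Its change was 1.04 ± 0.25 after anti-DCIR2-BDC (limma adjusted p = 0.0157) and 0.32 ± 0.25 after anti-DEC205-BDC (limma adjusted p = 0.551). The call was lost without PBS array 1 (adjusted p = 0.12), DCIR2 array 1 (0.106) or DCIR2 array 2 (0.0851). Ndufaf7 stayed at changes of 0.08 and -0.04, and Ndufaf1 and Ndufaf3 did not pass with changes between 0.24 and 0.50.

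Complex II is succinate dehydrogenase, the enzyme shared by the citric acid cycle and the respiratory chain. Sdhd, one of its membrane anchors, was at 8.16 and 7.57 on the PBS arrays, 8.71 and 8.64 on the DEC205 arrays and 8.38 and 8.44 on the DCIR2 arrays. All treated arrays were above the PBS arrays, which were themselves far apart. It passed after anti-DEC205-BDC (0.81 ± 0.22, limma adjusted p = 0.0446) and not after anti-DCIR2-BDC (0.55 ± 0.22, limma adjusted p = 0.122), and its call was lost without any 1 array other than PBS array 1, at adjusted p from 0.0832 to 0.236. The iron-sulfur subunit Sdhb had changes of 0.39 and 0.53, the other anchor Sdhc of 0.18 and -0.08, and the flavoprotein Sdha of 0.02 and -0.22, and none of these passed.

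Complex III passes electrons from ubiquinone to cytochrome c. Of its 9 measured genes 4 rose after anti-DEC205-BDC, with a median change of 0.65, and 7 after anti-DCIR2-BDC, with a median of 0.96. Uqcr11, its smallest subunit, whose promoter is printed above, was at 8.51 and 8.16 on the PBS arrays, 9.36 and 9.41 on the DEC205 arrays and 9.41 and 9.82 on the DCIR2 arrays. Both PBS arrays were below all others. It rose by 1.05 ± 0.20 and 1.28 ± 0.20 (limma adjusted p = 0.00902 and 0.00124), and the first call was lost without PBS array 2 (adjusted p = 0.0524).

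The core protein Uqcrc2 was at 8.28 and 8.56 after PBS, 9.06 and 9.24 after anti-DEC205-BDC and 9.48 and 9.53 after anti-DCIR2-BDC, and rose by 0.73 ± 0.18 and 1.08 ± 0.18 (limma adjusted p = 0.0292 and 0.0017). Uqcrb, which lies near the site of ubiquinone, rose by 0.90 ± 0.19 and 0.97 ± 0.19, and Uqcrq by 0.65 ± 0.18 and 0.61 ± 0.18. Cyc1, cytochrome c1, which hands electrons to cytochrome c, was at 8.39 and 7.60 on the PBS arrays, 8.74 and 8.79 on the DEC205 arrays and 8.89 and 9.29 on the DCIR2 arrays. The groups did not overlap, but the PBS arrays differed by more than the distance from the nearer of them to the DEC205 arrays. Cyc1 passed after anti-DCIR2-BDC (1.10 ± 0.26, limma adjusted p = 0.0132) and not after anti-DEC205-BDC (0.77 ± 0.26, limma adjusted p = 0.102).

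The Rieske iron-sulfur protein Uqcrfs1 was at 7.98 and 8.03 on the PBS arrays, 8.07 and 8.75 on the DEC205 arrays and 8.79 and 9.14 on the DCIR2 arrays. DEC205 array 1 lay close to the PBS arrays and DEC205 array 2 close to the DCIR2 arrays. Its change passed after anti-DCIR2-BDC (0.96 ± 0.24, limma adjusted p = 0.0181) and was 0.41 ± 0.24 after anti-DEC205-BDC. Uqcrc1, the other core protein, likewise passed after anti-DCIR2-BDC (0.74 ± 0.18, limma adjusted p = 0.015). Uqcrh, the hinge protein, had changes of 0.16 and 0.00. The 7 calls after anti-DCIR2-BDC became 4 without either PBS array and 3 without DCIR2 array 2, and the 4 calls after anti-DEC205-BDC became 1 without PBS array 2 or DEC205 array 1 and 2 without DEC205 array 2 or either DCIR2 array.

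Complex IV reduces oxygen, and here its subunits split. Of 11 genes 4 (36.4%) rose after anti-DEC205-BDC (Cox5a, Ndufa4, Cox7a2 and Cox7b). After anti-DCIR2-BDC 3 (27.3%) rose (Cox5a, Ndufa4 and Cox7a2) and 1 fell (Cox7a2l). The share of 27.3% stands beside 10.1% of all genes, or 21.3% with the dimmest 50% left out. Cox5a, a subunit facing the matrix, was at 8.71 and 8.59 on the PBS arrays, 9.45 and 9.56 on the DEC205 arrays and 9.73 and 9.87 on the DCIR2 arrays. The 3 groups did not overlap, and it rose by 0.85 ± 0.16 and 1.15 ± 0.16 (limma adjusted p = 0.009 and 0.000684). Ndufa4, first described as a subunit of complex I and now assigned to complex IV, was at 9.43 and 9.06 after PBS, 10.05 and 10.08 after anti-DEC205-BDC and 10.34 and 10.18 after anti-DCIR2-BDC. It rose by 0.82 ± 0.17 and 1.02 ± 0.17 (limma adjusted p = 0.0125 and 0.00171).

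Cox7a2, the form of subunit VIIa found in most tissues, rose by 0.81 ± 0.21 and 0.83 ± 0.21 (limma adjusted p = 0.0355 and 0.0176). Cox7b passed after anti-DEC205-BDC only by a small margin (0.52 ± 0.14, limma adjusted p = 0.0443) and had a change of 0.35 ± 0.14 after anti-DCIR2-BDC (limma adjusted p = 0.125). The other 6 subunits did not pass with either antibody: Cox4i1, Cox5b, Cox6a1, Cox6b1, Cox6c and Cox8a, with changes from 0.06 to 0.49. Cox6a1 was at 10.34 and 10.35 on the PBS arrays, 10.57 and 10.24 on the DEC205 arrays and 10.48 and 10.33 on the DCIR2 arrays, so that all groups overlapped. The 4 calls after anti-DEC205-BDC became 0 without DEC205 array 2, where Cox5a had an adjusted p of 0.0631, and 1 without DEC205 array 1 or PBS array 2. Of the 3 higher calls after anti-DCIR2-BDC, that of Cox7a2 was lost without PBS array 1, PBS array 2 or DCIR2 array 2, with changes of 0.82, 0.84 and 0.59.

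Cox7a2l, which is related to Cox7a2 and is known to join complexes III and IV into supercomplexes, was at 9.95 and 9.80 on the PBS arrays, 9.51 and 9.37 on the DEC205 arrays and 9.24 and 9.31 on the DCIR2 arrays. All 4 treated arrays lay below both PBS arrays. It fell by 0.60 ± 0.16 on the log2 scale, 1.52-fold, after anti-DCIR2-BDC (limma adjusted p = 0.0213), and its change of -0.43 ± 0.16 after anti-DEC205-BDC did not pass (limma adjusted p = 0.13). Its other probe set had changes of -0.58 and -0.85. The call was lost without PBS array 1 (adjusted p = 0.123), DCIR2 array 1 (0.107) or DCIR2 array 2 (0.0788).

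The 8 isoforms known from other tissues or conditions were dim and showed no change that passed. They are Cox4i2, known from lung and from low oxygen, Cox6a2, Cox7a1 and Cox8b, known from heart and skeletal muscle, Cox6b2, Cox7b2 and Cox8c, known from testis, and Ndufa4l2, known from low oxygen. Their values lay between 4.53 (Cox7b2, DCIR2 array 2) and 6.69 (Cox4i2, DEC205 array 2). Changes ranged from -0.30 (Cox6b2) to 0.14 (Cox4i2 and Cox7b2) after anti-DEC205-BDC and from -0.29 (Cox6b2) to 0.18 (Cox4i2) after anti-DCIR2-BDC. The other 5, Cox6a2, Cox7a1, Cox8b, Cox8c and Ndufa4l2, had changes from -0.18 to 0.12 in both comparisons. Without these 8, 34.1% and 41.5% of the 82 remaining genes rose, and their median changes were 0.46 and 0.48. The shares over all genes, 5.32% and 10.1%, still include dim genes. With the dimmest 50% of all genes left out they were 12.4% and 21.3%.

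ATP synthase had 9 of 17 genes higher after each antibody, with median changes of 0.64 after anti-DEC205-BDC and 0.52 after anti-DCIR2-BDC. Atp5g1, which encodes the c subunit of the proton-driven ring, was at 10.48 and 10.51 on the PBS arrays, 11.50 and 11.58 on the DEC205 arrays and 11.50 and 11.79 on the DCIR2 arrays. All treated arrays were above both PBS arrays. It rose by 1.04 ± 0.12, 2.06-fold, and by 1.15 ± 0.12, 2.22-fold (limma adjusted p = 0.000985 and 0.000153), the former the smallest adjusted p of any member after anti-DEC205-BDC.

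The other genes of the ring, Atp5g2 and Atp5g3, encode the same mature protein with other import signals. Atp5g3 rose by 0.66 ± 0.17 and 0.84 ± 0.17 (limma adjusted p = 0.041 and 0.00671). Atp5g2 passed after anti-DEC205-BDC (0.61 ± 0.14, limma adjusted p = 0.0239) and had a change of 0.36 ± 0.14 after anti-DCIR2-BDC (limma adjusted p = 0.117). On the DCIR2 arrays Atp5g2 was at 10.82 and 11.23, with the first close to the PBS values of 10.69 and 10.64.

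In the head, the catalytic subunit Atp5b was at 9.65 and 9.59 on the PBS arrays, 10.36 and 10.52 on the DEC205 arrays and 10.68 and 10.88 on the DCIR2 arrays, in 3 groups that did not overlap. It rose by 0.82 ± 0.14 and 1.16 ± 0.14 (limma adjusted p = 0.00583 and 0.000303). Atp5a1, which alternates with Atp5b in the head, rose by 0.71 ± 0.17 and 0.98 ± 0.17. Atp5d, of the central stalk, was at 9.09 and 8.92 after PBS, 9.62 and 9.92 after anti-DEC205-BDC and 10.17 and 10.31 after anti-DCIR2-BDC, and rose by 0.76 ± 0.17 and 1.23 ± 0.17 (limma adjusted p = 0.0182 and 0.000565). Atp5e of the same stalk passed after anti-DCIR2-BDC (0.52 ± 0.14, limma adjusted p = 0.0294), and Atp5c1 did not pass with changes of 0.31 and 0.37.

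Of the peripheral stalk, which holds the head still, Atp5o rose by 0.74 ± 0.20 and 1.09 ± 0.20 and Atp5pb by 0.79 ± 0.18 and 1.06 ± 0.18. The other probe set of Atp5pb had changes of 0.32 and 0.51. With the probe sets averaged, the call of Atp5pb after anti-DEC205-BDC was lost (limma adjusted p = 0.0695). Atp5h of the same stalk had changes of -0.02 and 0.00. Its arrays were at 9.62 and 9.80, at 9.65 and 9.73 and at 9.73 and 9.70, so that all groups overlapped. Among 5 small membrane subunits Atp5k alone passed, with both antibodies (0.64 ± 0.16 and 0.79 ± 0.16, limma adjusted p = 0.0315 and 0.00595), and Atp5j2, Atp5l, Atp5md and Atp5mpl had changes from 0.18 to 0.70. Of the 9 calls after anti-DEC205-BDC, those of Atp5b and Atp5g1 alone were kept without DEC205 array 2. Without PBS array 2 those of Atp5a1, Atp5b and Atp5g1 were kept, and without DEC205 array 1 those of Atp5b, Atp5d, Atp5g1, Atp5g3 and Atp5o. Without PBS array 1 Atp5a1, Atp5g2, Atp5g3, Atp5o and Atp5pb lost theirs, with changes of 0.48, 0.63, 0.68, 0.79 and 0.73. The 9 calls after anti-DCIR2-BDC became 6 without DCIR2 array 2.

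**Figure D3:**
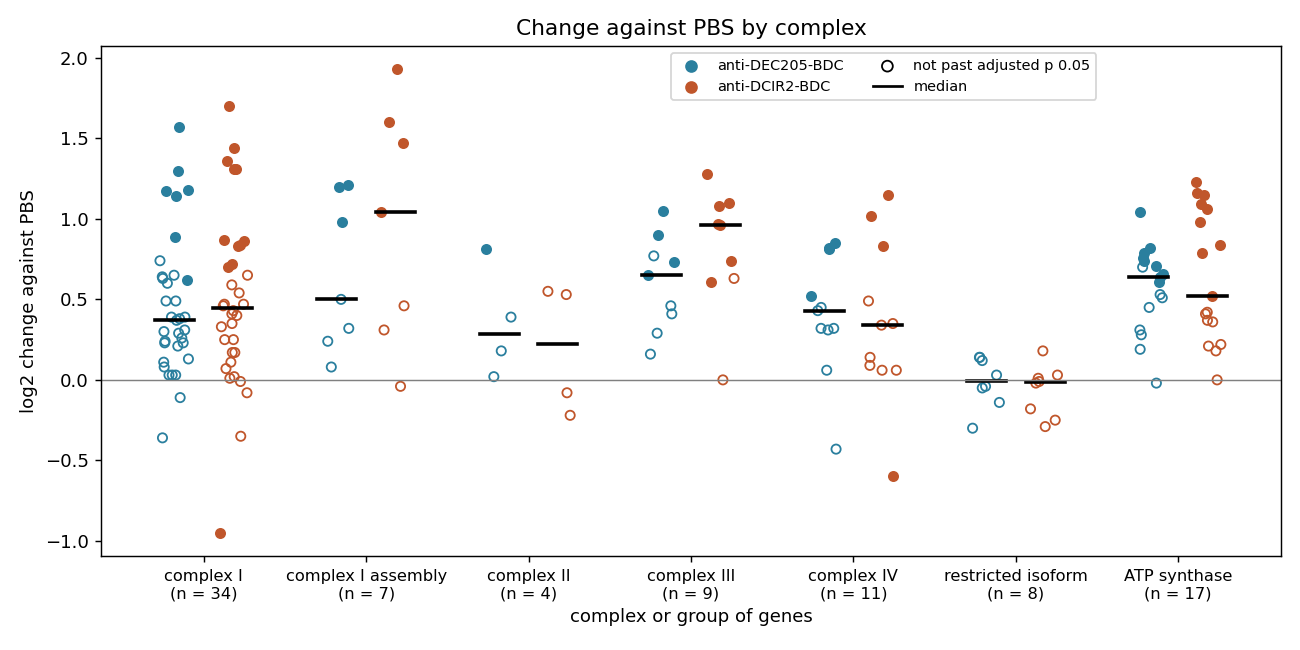
Log2 change against PBS of each gene (points), by complex, after anti-DEC205-BDC (blue) and anti-DCIR2-BDC (orange). Filled points passed at an adjusted p of 0.05, open points did not, and black lines mark the medians, which reach 1.04 for the 7 assembly factors after anti-DCIR2-BDC and lie near 0 for the 8 restricted isoforms.

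**Figure D4:**
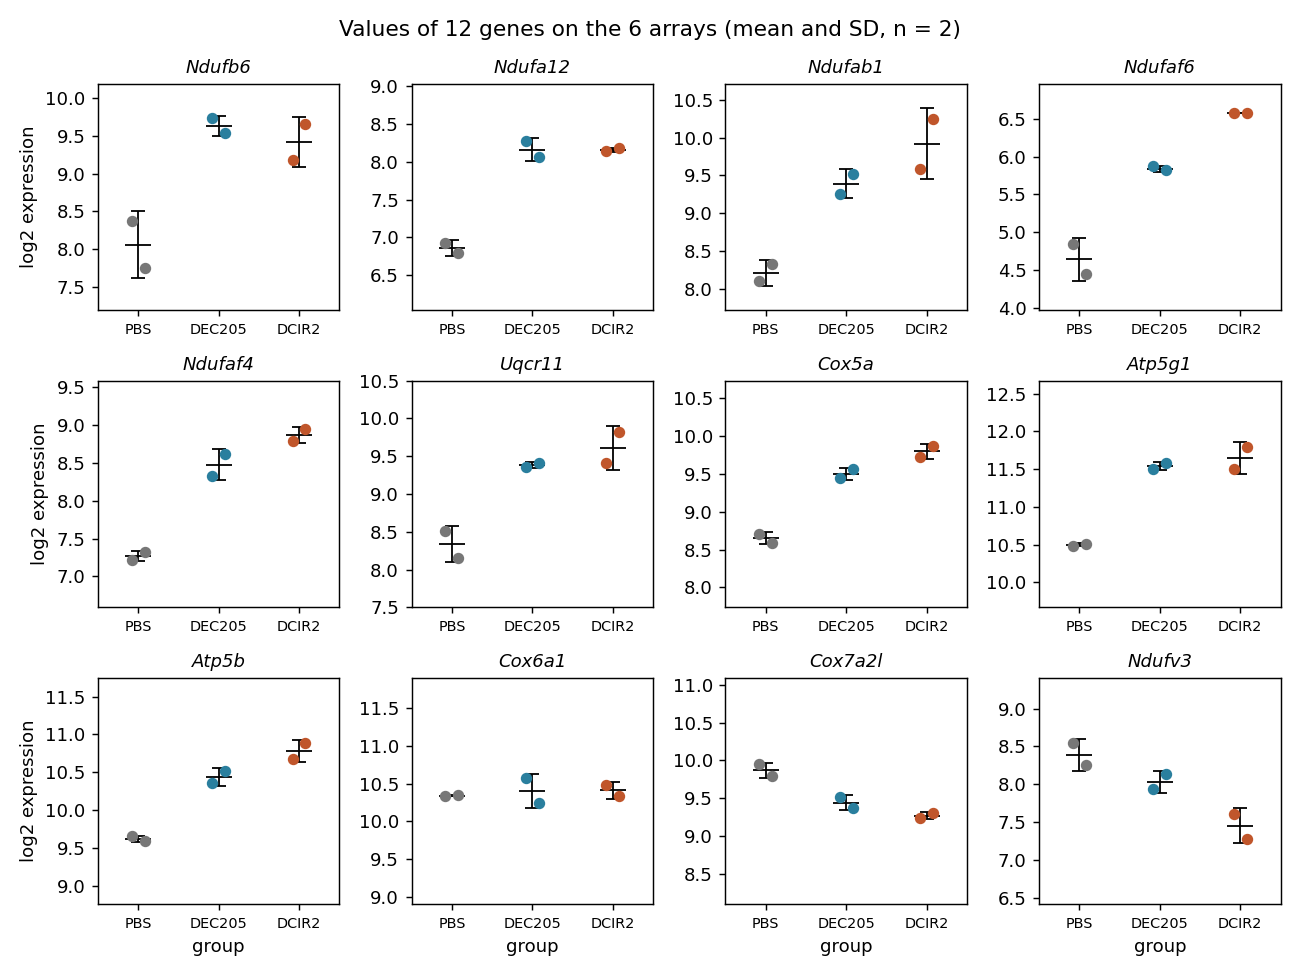
Log2 expression of 12 genes on the 6 arrays (points), with the mean and SD of each group of 2 (bars), on axes of equal span. In 9 of the panels both PBS arrays lie below all treated arrays, Cox6a1 overlaps between groups, and Cox7a2l and Ndufv3 descend from PBS to anti-DCIR2-BDC.

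The antibodies were also compared with each other. Between anti-DCIR2-BDC and anti-DEC205-BDC 0 of the 90 genes passed in either direction (limma, smallest adjusted p = 0.223), and 12 (13.3%) had an unadjusted p under 0.05, beside 10.2% of all genes. The 12 genes described next are those with the smallest p-values, and their number was near that background. Over all genes 0.0201% passed as higher with anti-DCIR2-BDC and 0% as lower, so that the test made few calls of any kind. Both DCIR2 arrays were above both DEC205 arrays in 27 genes and below them in 16, against 19.3% and 20.9% of all genes. The median difference of the 90 was 0.05, and that of all genes -0.01.

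The largest difference was that of Ndufaf6, at 0.73 with a 95% interval from 0.34 to 1.11 (limma adjusted p = 0.223), the arrays of which are given above. Ndufaf5 was next (0.72, from 0.16 to 1.28). In the opposite direction, Ndufa1, a small membrane subunit needed for complex I assembly, was at 9.09 and 9.27 on the DEC205 arrays and at 8.65 and 8.39 on the DCIR2 arrays. The latter were close to the PBS values of 8.66 and 8.41. Its difference was -0.66 (from -1.08 to -0.24, limma adjusted p = 0.281).

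The remaining 9 of the 12 genes were Atp5d, Uqcrc1, Atp5b, Ndufs7, Ndufab1 and Uqcrfs1, with differences from 0.34 to 0.55, and Ndufv3, Cox6c and Cox7b2, with differences of -0.58, -0.37 and -0.40. By group, the median difference was 0.39 for the assembly factors, 0.23 for complex III, 0.07 for ATP synthase, 0.06 for complex I, -0.11 for complex IV and -0.25 for complex II. Genes with a difference near 0 included Ndufa12, Cox6a1, Uqcrq and Atp5e. Over all genes the unadjusted 95% interval reached a median of 0.388 to either side. For a gene with such an interval, smaller differences could not be told from 0. Some intervals were narrower, such as that of Cox6c with its difference of -0.37. After adjustment larger differences did not pass either, such as the 0.73 of Ndufaf6.

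**Figure D5:**
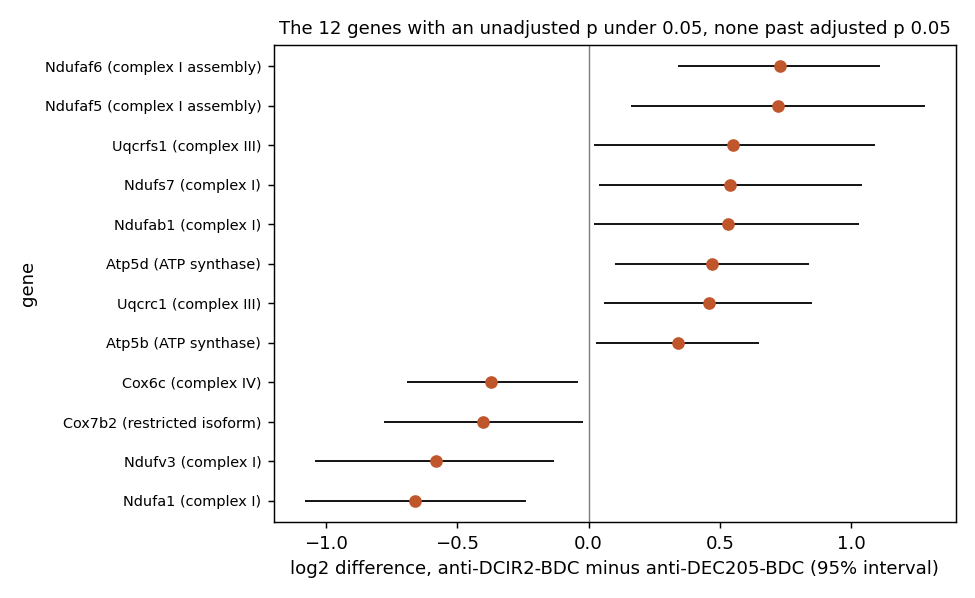
Log2 difference between anti-DCIR2-BDC and anti-DEC205-BDC (points) with 95% intervals (lines) for the 12 genes with an unadjusted p under 0.05. The points run from -0.66 (Ndufa1) to 0.73 (Ndufaf6), and none passed after adjustment.

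Counts also differed with the level on the arrays. When the 90 genes were ordered by their mean, 4 of the 30 dimmest rose after anti-DEC205-BDC, as did 12 of the middle 30 and 12 of the brightest 30. After anti-DCIR2-BDC the counts were 8, 16 and 10. These are counts of members alone, with no share of all genes at the same levels beside them. The dimmest 30, with means from 4.94 to 8.03, include the 8 restricted isoforms, of which 0 passed. Level and kind of gene are therefore not separated in these counts. Median changes were 0.25, 0.56 and 0.48 after anti-DEC205-BDC and 0.36, 0.67 and 0.37 after anti-DCIR2-BDC, and median standard errors 0.20, 0.19 and 0.16. In all, 115 probe sets name only 1 of these genes. Of the 17 genes with several, 14 had changes of 1 sign on all their probe sets with both antibodies, and the exceptions Atp5h, Ndufb11 and Ndufs3 had changes near 0.

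Genes that serve the same pathway outside these symbols were read from lists chosen, like the members, with earlier results of these data known. Their counts stand beside the shares over all genes, 5.32% higher and 3.53% lower after anti-DEC205-BDC and 10.1% and 7.82% after anti-DCIR2-BDC. Of 39 measured assembly factors and electron carriers, 6 rose after anti-DEC205-BDC and 12 after anti-DCIR2-BDC, and 0 fell (medians 0.15 and 0.36). Cycs, cytochrome c, which carries electrons from complex III to complex IV, was at 8.17 and 7.92 on the PBS arrays, 9.81 and 9.78 on the DEC205 arrays and 9.87 and 10.31 on the DCIR2 arrays. It rose by 1.75 ± 0.19, 3.36-fold, and by 2.04 ± 0.19, 4.11-fold (limma adjusted p = 0.000781 and 8.69e-05), in each comparison more than any of the 90 genes. Uqcc2, an assembly factor of complex III, rose by 1.29 ± 0.30 and 1.71 ± 0.30, and Lrpprc, which stabilises mitochondrial messenger RNA, by 1.30 ± 0.19 and 1.48 ± 0.19. The 6 calls of the list became 2 without DEC205 array 2, 3 without PBS array 1 and 4 without PBS array 2 or either DCIR2 array, and the 12 became 6 without PBS array 1 or DCIR2 array 2 and 8 without DCIR2 array 1. The call of Uqcc2 after anti-DEC205-BDC was lost without PBS array 2 (adjusted p = 0.109), DEC205 array 2 (0.134), DCIR2 array 1 (0.0562) or DCIR2 array 2 (0.0568).

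Of 17 measured genes of the citric acid cycle and pyruvate dehydrogenase, which supply the electrons, 4 and 8 rose with the antibodies in turn and 0 fell (medians 0.26 and 0.58). Fumarase Fh1 rose by 1.24 ± 0.22 and 1.44 ± 0.22, Idh3a, the catalytic subunit of isocitrate dehydrogenase, by 0.94 ± 0.20 and 1.30 ± 0.20, and malate dehydrogenase Mdh2 by 0.77 ± 0.16 and 1.27 ± 0.16. The 4 calls became 1 without DEC205 array 2 and 2 without either PBS array, and the 8 became 3 without DCIR2 array 2 and 5 without PBS array 1. Without DEC205 array 2 the calls of Idh3a and Mdh2 after anti-DEC205-BDC were lost (adjusted p = 0.0888 and 0.104), as they were without PBS array 2 for Idh3a (0.0964) and PBS array 1 for Mdh2 (0.0786).

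Among 6 carriers and channels for ATP, ADP and phosphate, 4 rose with each antibody and 0 fell (medians 0.74 and 0.71). Slc25a5, an exchanger of ADP for ATP across the inner membrane, was at 9.83 and 9.74 on the PBS arrays, 10.67 and 11.04 on the DEC205 arrays and 11.20 and 11.48 on the DCIR2 arrays. It rose by 1.07 ± 0.16 and 1.56 ± 0.16 (limma adjusted p = 0.00273 and 0.00012). Vdac1, a channel of the outer membrane, rose by 1.17 ± 0.18 and 1.43 ± 0.18 (limma adjusted p = 0.00362 and 0.000375). The other calls were those of Vdac2 and Vdac3. In the first comparison both were lost when any 1 PBS or DEC205 array was left out. In the second both were lost when either PBS array or DCIR2 array 2 was left out.

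Of 18 regulators of mitochondrial gene expression, 2 rose and 1 fell after anti-DEC205-BDC, and 4 rose and 1 fell after anti-DCIR2-BDC (medians 0.08 and 0.34). Over all genes 5.32% rose and 3.53% fell in the first comparison, and 10.1% and 7.82% in the second. Whether these few calls differ from those shares was not tested. Pprc1, a coactivator related to PGC-1, was at 7.74 and 7.81 on the PBS arrays, 9.01 and 9.27 on the DEC205 arrays and 9.43 and 9.71 on the DCIR2 arrays. It rose by 1.36 ± 0.19 and 1.79 ± 0.19 (limma adjusted p = 0.00203 and 0.000137). Polg2, the accessory subunit of the mitochondrial DNA polymerase, fell by 0.97 and 1.18 on the log2 scale (± 0.17 each, limma adjusted p = 0.00649 and 0.000819). Ssbp1, which binds single-stranded mitochondrial DNA, rose by 0.86 ± 0.17 and 1.01 ± 0.17. Tefm, a factor of mitochondrial transcription, passed after anti-DCIR2-BDC (1.47 ± 0.28, limma adjusted p = 0.0041), as did Gabpa (0.83 ± 0.24, limma adjusted p = 0.0344). The 2 rises after anti-DEC205-BDC became 1 without PBS array 1 or DEC205 array 2, and the 4 after anti-DCIR2-BDC became 2 without DCIR2 array 2. Without DCIR2 array 2 the calls of Tefm and Gabpa were lost (adjusted p = 0.0595 and 0.238), and that of Gabpa also without PBS array 1 (0.138), PBS array 2 (0.0771) or DCIR2 array 1 (0.0744). The calls of Ssbp1 were lost when its probe sets were averaged (adjusted p = 0.173 and 0.0593), and the first also without PBS array 1 (0.0631) or DEC205 array 2 (0.0787).

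Of the 13 subunits encoded in mitochondrial DNA, 2 had a probe set of their own. COX2, a catalytic subunit of complex IV, was at 12.33 and 12.43 on the PBS arrays, 12.31 and 12.07 on the DEC205 arrays and 12.07 and 11.91 on the DCIR2 arrays. It did not rise with the nuclear subunits: its change was -0.19 ± 0.10 after anti-DEC205-BDC (limma adjusted p = 0.331), and it fell by 0.39 ± 0.10 on the log2 scale after anti-DCIR2-BDC (limma adjusted p = 0.0225). The call was lost without PBS array 1 (adjusted p = 0.0517), PBS array 2 (0.134) or DCIR2 array 2 (0.146), and, among the other alternatives, with each array centred on its median (0.0672), with its probe sets averaged (0.168), without a trend (0.128) and with a robust trend (0.057). The other, ND3 of complex I, did not pass with either antibody.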

How the data were processed

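Per the labels' protocols, a PicoPure kit was used for the RNA of the sorted T cells, and a NuGen whole-transcriptome kit amplified it from 5 ng. Such amplification can add noise. Per the submitters' processing notes, the authors deposited 1 log2 value for each probe set and array after RMA in Partek, its settings not given in the sources used here. Because RMA makes the arrays' distributions alike, changes common to every gene are removed. Values ran from 2.15 to 13.9 over 35556 probe sets, and the number of arrays limits the precision.

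Of the probe sets, 21789 name 1 gene symbol in the platform annotation, 1621 several and 12146 none here. Entrez identifiers matched 21698 of the first to RefSeq genes (GRCm38.p6). Per gene, the probe set with the highest mean over 6 arrays was used. Groups were compared over all 6 arrays with limma 3.58.1 (R 4.3.3), 1 mean per group, moderated variances with a trend, two-sided tests and Benjamini-Hochberg adjustment over 19938 genes, with a threshold of 0.05. P-values measure the spread between these arrays only. The fit was tested on simulated data. Members, lists and motifs were chosen with earlier results of these data known. Named by rule were, in each comparison and complex, up to 4 passing genes of largest change and 1 that did not pass nearest 0, falls, and restricted isoforms; the others were named after their values were seen. Alternatives were leaving out each array, other normalizations, filters, probe sets and variance models, the 4 arrays compared alone and a replicate block.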

Additional observations from a re-analysis of the deposited data

Results flagged for a closer look

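The close copies Ndufb4 and Ndufb4b, subunits of complex I, share probe sets that name both symbols and were therefore left out of the counts. The brightest of these was at 8.15 and 8.22 on the PBS arrays, 9.18 and 8.87 on the DEC205 arrays and 8.76 and 9.31 on the DCIR2 arrays. It rose by 0.84 ± 0.22 (SE) after anti-DEC205-BDC and by 0.85 ± 0.22 after anti-DCIR2-BDC on the log2 scale (limma adjusted p = 0.0386 and 0.0203, fitted with these probe sets added). Another probe set of both had changes of 0.77 and 0.87. Which of the copies changed cannot be told from them. The probe sets of Cox7c, shared with another symbol, had changes of 0.02 to 0.10, and the one fitted did not pass (limma adjusted p = 0.864 and 0.963).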

How the results depend on the processing

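No named gene that passed changed its direction under the 17 alternatives in which it was tested. With 1 array left out, the count of genes passing ranged from 10 to 20 after anti-DEC205-BDC (28 with all arrays) and from 19 to 35 after anti-DCIR2-BDC (36 with all arrays), and the median change from 0.34 to 0.51 and from 0.33 to 0.54. A group reduced to 1 array is then assumed to vary like the others. Under the other 11 alternatives the counts were 20 to 35 and 32 to 41 and the medians 0.38 to 0.45 and 0.33 to 0.52. Between the antibodies 0 genes passed under all 17. There the median difference of 0.05 ranged from -0.01 to 0.13, so its sign was not settled. Of 88 results for single named genes 55 kept their direction and their side of the threshold in all alternatives. Most of the 88 were named for large changes, changes near 0 or as restricted isoforms, and 18 are between the antibodies, where 0 passed. The count therefore does not describe the calls at large, whose stability is given above. With the replicate number as a block, 31 and 37 genes passed against PBS and 0 between the antibodies. Deviations of same-numbered arrays from their group means correlated at 0.145, 0.131 and 0.0714, and the labels do not say that a number marks shared mice, so no pairing was assumed. With arrays quantile-normalized again or centred on their medians, the medians of all genes lay between 0.00 and 0.03.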

Other observations

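Some assembly factors outside the symbol rule had larger changes after anti-DCIR2-BDC than after anti-DEC205-BDC, and are given here as values chosen after they were seen. Atpaf2, which assembles the head of ATP synthase, was at 6.14 and 6.14 on the PBS arrays, 6.08 and 6.51 on the DEC205 arrays and 7.10 and 7.35 on the DCIR2 arrays. PBS and DEC205 arrays overlapped, and it rose by 1.08 ± 0.20 (SE, log2 scale) after anti-DCIR2-BDC (limma adjusted p = 0.00371). Its difference between the antibodies was 0.93, with a 95% interval from 0.48 to 1.38, and did not pass (limma adjusted p = 0.19). Ecsit, an assembly factor of complex I, was at 6.01 and 6.29, at 6.26 and 6.87 and at 7.10 and 7.28 in the same order, with a difference of 0.63 (from 0.12 to 1.14, limma adjusted p = 0.403). Tefm, of mitochondrial transcription, had a difference of 1.11 (from 0.49 to 1.73, limma adjusted p = 0.225).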
